A study of Mus musculus with 12 samples.

Results

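The collagen chain genes of the mouse heart were examined here, chosen as every gene whose symbol is Col, a number, a and a number, as in Col1a1. The rule found 44 of the 38293 gene identifiers in the deposited tables, and it used no measured value. RNA was sequenced from the left ventricle of C57BL/6J mice in 4 groups of 3 animals each. WT sham mice had sham surgery (the day of harvest was not given for them), and WT IR mice had ischaemia–reperfusion (IR), in which a coronary artery was tied off for 1 h and reopened, 14 days before harvest. Zeb2 WT IR and Zeb2 cTg IR mice were littermates that had the same injury and the same interval. In the Zeb2 cTg line a Zeb2 transgene behind a floxed stop cassette in the Rosa26 locus is switched on by Cre under the cardiomyocyte promoter Myh6; the control littermates were wildtype. Per the methods the mice were 8 to 9 weeks old, and both male mice alone and mice of both sexes are named. The sources differ on the tissue: the methods name the remote zone, the sample records the left ventricle, and the design text the infarct with its border zone.

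Collagens are secreted proteins built of 3 chains wound into a triple helix. Fibrillar collagens (types I, II, III, V, XI, XXIV and XXVII) assemble into the fibres that give scar its strength. Basement membrane collagen (type IV) forms the sheets on which endothelial cells and cardiomyocytes rest, network-forming collagens (types VIII and X) make shorter lattices, and FACIT collagens (fibril-associated collagens with interrupted triple helices) coat the surface of fibrils. Beaded-filament collagen (type VI), the multiplexins (types XV and XVIII) and membrane-spanning collagens make up most of the rest. After cardiac injury, fibroblasts are the best known source of fibrillar collagen. By these classes the 44 genes divide into 11 fibrillar, 6 basement membrane, 3 network, 6 beaded-filament, 9 FACIT, 2 multiplexin, 4 transmembrane and 1 anchoring-fibril chain, and 2 others.

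Between 5706340 and 11618213 counts per library fell outside the mitochondrial genome, and collagen chains took from 0.176% to 1.48% of these. Levels are given as CPM, counts per 1e6 after TMM normalization within each table. In these libraries 1 CPM stood for 17.2 to 37.8 counts, so chains under about 1 CPM rest on few reads. All 14 cardiomyocyte markers searched for were detected in each group, Ttn, Myh6 and Actc1 among them. Zeb2 itself was at 54.7, 57.7 and 67.0 CPM in the Zeb2 WT IR libraries and at 55.5, 56.8 and 58.7 CPM in libraries labelled Zeb2 cTg IR, a log2 difference of -0.07 ± 0.12 (adjusted p = 0.750, edgeR's quasi-likelihood test). Zeb2 was thus not higher in them, and every direction given for these libraries rests on their labels. The authors reported higher Zeb2 mRNA (by qPCR) and ZEB2 protein (by staining) in hearts of this line after surgery, which these counts do not show. The tables of the WT and of the Zeb2 mice were deposited separately, so levels were tested only within a table.

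The chains differed over several orders of magnitude in level. Per kb of transcript, the highest chains in WT sham were Col4a1 with 44.7 ± 4.63 CPM per kb (mean ± SD, n = 3), Col3a1 with 39.2 ± 20.5 and Col4a2 with 29.1 ± 3.14. The spread of Col3a1 covers both neighbours in that order. In WT IR the order changed to Col3a1 with 248 ± 113, Col1a2 with 61.6 ± 26.5, Col4a1 with 49.9 ± 1.32, Col1a1 with 28.5 ± 10.1 and Col4a2 with 26.7 ± 0.749 CPM per kb. Of these, Col3a1 stood apart from all others, while Col1a2 and Col4a1 did not differ beyond their spread. The Zeb2 WT IR libraries opened with the same 3 chains as WT IR (Col3a1 at 90.8 ± 46.1, Col1a2 at 25.9 ± 11.97 and Col4a1 at 22.3 ± 6.11 CPM per kb). The libraries labelled Zeb2 cTg IR opened with the 3 chains that led in WT sham, namely Col3a1 at 24.6 ± 5.79, Col4a1 at 21.8 ± 3.67 and Col4a2 at 12.8 ± 2.90 CPM per kb. At the other end, Col2a1, the chain of cartilage collagen, and Col10a1, the chain of growth-plate collagen, had at most 2 reads in any WT library and none in the Zeb2 table.

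**Figure D1:**
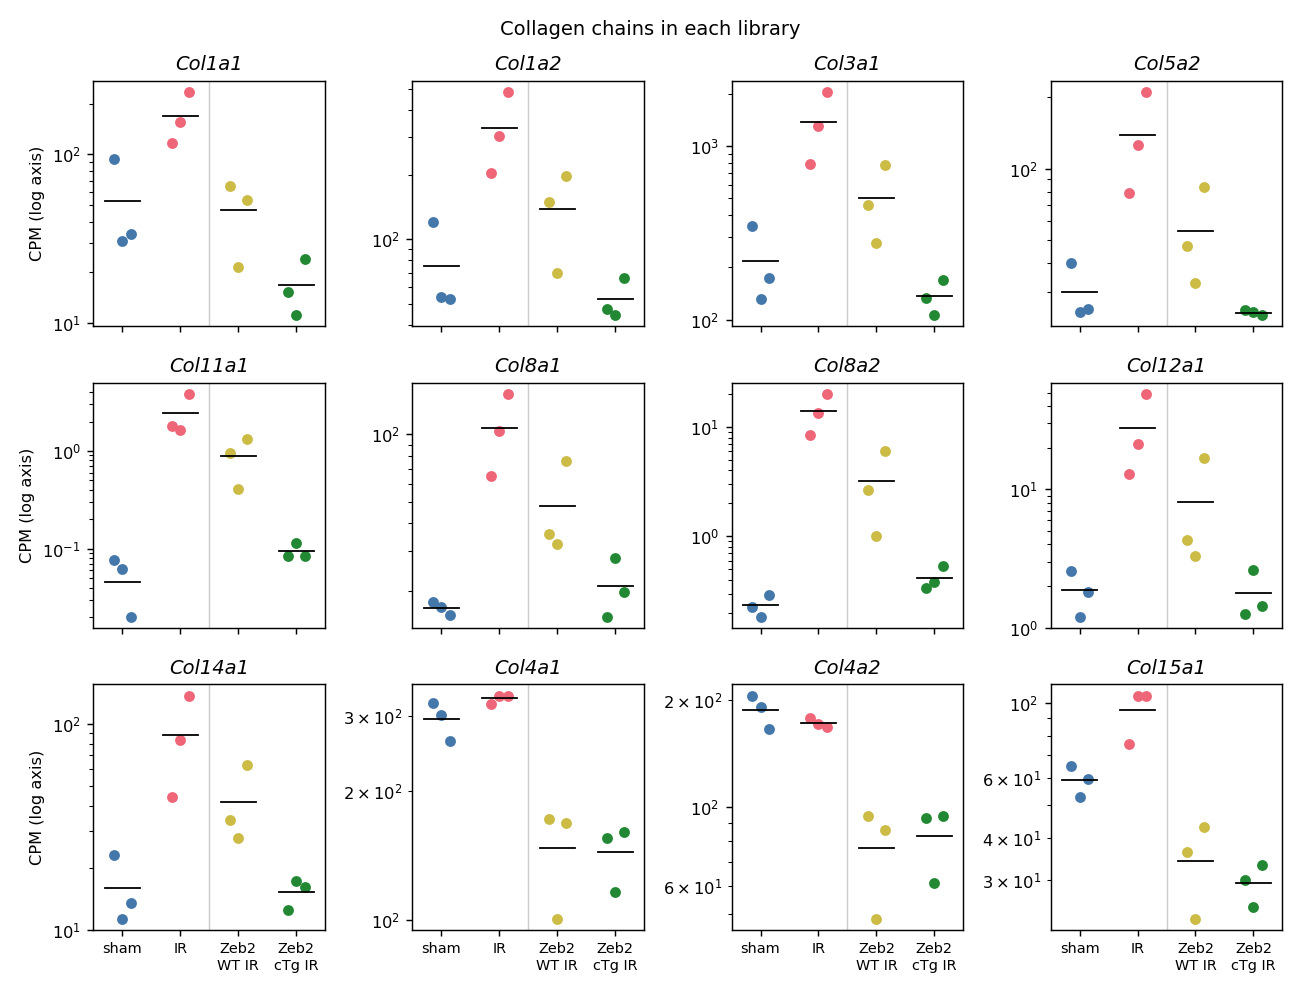
CPM of 12 collagen chains in each library (points, log axes that differ between panels; black lines are group means, n = 3; 0 is drawn at 0.02 CPM for 1 sham library of Col11a1). The grey line separates the tables, which were normalized apart; the WT IR points lie above all sham points for the fibrillar, network and FACIT chains and for Col15a1, and overlap them for Col4a1 and Col4a2.

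The effect of ischaemic injury was asked by comparing WT IR with WT sham. Most fibrillar, network and FACIT chains tested were higher after IR. So were 4 of 6 basement membrane chains, while the 2 most abundant of that class did not pass. Of the 44 chains, 34 had enough reads to be tested. In edgeR's quasi-likelihood test with Benjamini-Hochberg adjustment over all 13756 genes tested, 22 chains were higher (64.7% of those tested, against 11% of all genes) and 1 was lower (2.94%, against 9.74% of all genes). In 24 chains all 3 IR libraries lay above all 3 sham libraries, which 20.5% of all genes did. The median log2 fold change of the 34 chains was 1.05, beside 0.01 over all genes. The filter itself shapes these figures. In 5 of the 34 chains (Col11a1, Col8a2, Col22a1, Col25a1 and Col28a1) all 3 IR libraries but not all 3 sham libraries reached its cutoff. The reverse held for Col11a2 and Col13a1. Such chains are said here to pass through 1 group alone. Some libraries of the other group could still reach the cutoff, 2 of them for Col28a1 and for Col13a1. The number of chains called higher was 10 without WT sham replicate 2 (1.64% of all genes), 14 without WT sham replicate 3 (4.87%) and 12 without WT IR replicate 2 (4.17%).

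**Figure D2:**
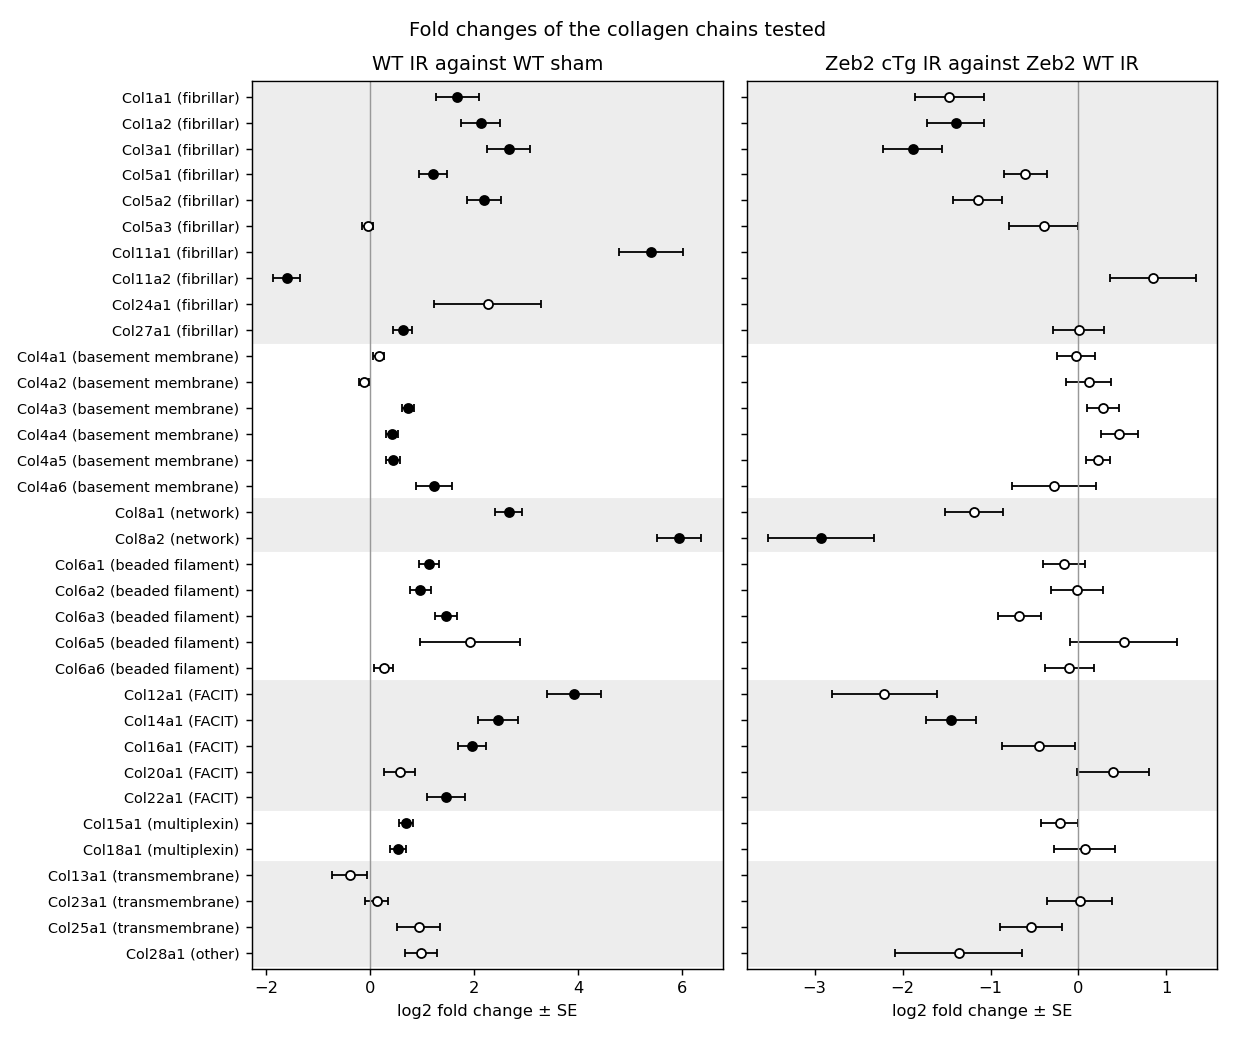
Log2 fold changes ± SE (edgeR) of the tested chains, with the class in brackets; filled points have an adjusted p under 0.05, and a chain with no point was not tested in that comparison. In WT IR against WT sham 22 filled points lie to the right of 0 and 1 to the left; in libraries labelled Zeb2 cTg IR against Zeb2 WT IR 4 filled points lie to the left.

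Among the 10 fibrillar chains tested, 7 rose, 1 fell and 2 did not pass. Col11a1, which rose, and Col11a2, which fell, each passed the filter through 1 group alone. Col3a1 (ENSMUSG00000026043; chr1:45311538-45349706, plus strand, GRCm38), the single chain of type III collagen of reticular fibres, was at 347, 132 and 175 CPM in the sham libraries and at 792, 1301 and 2043 CPM in the IR libraries. The lowest IR library had more than the highest sham library, and the log2 fold change was 2.66 ± 0.41 (SE; adjusted p = 0.00478). The call held in 6 of 6 fits that left out 1 library. The chains of type I collagen, the main collagen of scar, followed. Col1a2 (chr6:4504814-4541544, plus strand) went from 120.0, 53.8 and 53.05 CPM to 203, 303 and 483 CPM (2.12 ± 0.37, adjusted p = 0.00740). Col1a1 (chr11:94936224-94953042, plus strand) was at 93.98, 30.8 and 33.6 CPM in sham and at 116, 156 and 234 CPM after IR (1.67 ± 0.41, adjusted p = 0.0211). For both chains the groups did not overlap, and sham replicate 1 stood above the other sham libraries. Without that library the log2 fold change of Col1a1 was 2.39, and without WT sham replicate 2, WT sham replicate 3 or WT IR replicate 2 its adjusted p was 0.102, 0.0814 and 0.0648.

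The promoter of Col3a1 is shown because Col3a1 was the most abundant chain after IR and had the smallest adjusted p among the abundant fibrillar chains in the Zeb2 table. The RefSeq window of 300 bases (250 before to 50 after the annotated start) lies at chr1:45311288-45311587 on the plus strand of GRCm38.p6. Capitals mark the match to the TATA box letters TATAAA, the only one of 4 promoter motifs searched that it holds.
Col3a1: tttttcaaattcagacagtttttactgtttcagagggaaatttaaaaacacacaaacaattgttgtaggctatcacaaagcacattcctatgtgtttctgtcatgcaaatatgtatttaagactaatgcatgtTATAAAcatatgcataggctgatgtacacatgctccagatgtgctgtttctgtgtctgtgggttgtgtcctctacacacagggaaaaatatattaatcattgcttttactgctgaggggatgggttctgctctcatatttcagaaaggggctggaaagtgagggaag

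Type V collagen joins type I in the fibril and sets its diameter. Col5a2 (chr1:45374321-45503282, minus strand), which lies next to Col3a1 with 24614 bases between the gene ends, rose from 40.1, 24.9 and 25.6 CPM to 78.8, 125 and 211 CPM (2.19 ± 0.33, adjusted p = 0.00448). Col5a1 rose less, from 51.9, 29.6 and 32.1 CPM to 56.1, 86.8 and 119 CPM (1.20 ± 0.27, adjusted p = 0.0167). In both chains every IR library exceeded every sham library. The third chain of the type, Col5a3, was at 22.5, 17.5 and 17.3 CPM in sham and at 17.8, 18.4 and 19.1 CPM after IR, overlapping (-0.05 ± 0.11, adjusted p = 0.761). Type XI collagen, a minor fibrillar collagen best known from cartilage, had its chains on opposite sides. Col11a1 passed the filter through the IR libraries alone and Col11a2 through the sham libraries alone, so the filter itself favoured these directions. Col11a1 had 2, 2 and 0 reads in the sham libraries (0.0756, 0.0613 and 0 CPM) and 58, 62 and 103 reads after IR (1.81, 1.64 and 3.84 CPM). Its fitted log2 fold change of 5.40 ± 0.62 (adjusted p = 0.00229) rests on those few sham reads. Col11a2 was the only chain called lower, from 0.907, 1.01 and 1.05 CPM to 0.375, 0.291 and 0.298 CPM (-1.60 ± 0.26, adjusted p = 0.00571), and it did not pass the filter when 10 counts were required in every library. Col11a2 also had the highest GC content of the tested chains, 62.9%. Of the remaining fibrillar chains, Col27a1, a collagen of cartilage and other developing tissues, was at 2.15, 1.87 and 2.44 CPM and 2.62, 3.30 and 3.91 CPM (0.62 ± 0.19, adjusted p = 0.0436, passing in 1 of 6 fits without 1 library). Col24a1, known from bone, was at 0.454, 0.0919 and 0 CPM and 0.375, 0.291 and 2.39 CPM, and its value came from WT IR replicate 3 (2.26 ± 1.03, adjusted p = 0.144).

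Basement membrane chains divided by abundance: the 2 abundant chains did not pass, and the 4 others rose by up to 1.23 on the log2 scale. Col4a1 and Col4a2, which together form the type IV network found in nearly all tissues, were the most abundant of them. Col4a1 (ENSMUSG00000031502; chr8:11198423-11312826, minus strand) was at 323, 302 and 263 CPM in sham and at 320.3, 335 and 336 CPM after IR, with overlapping groups (0.16 ± 0.10, adjusted p = 0.281). Col4a2 (ENSMUSG00000031503; chr8:11312805-11449287, plus strand) was at 206, 191 and 166 CPM and 178, 171 and 168 CPM, also overlapping (-0.12 ± 0.10, adjusted p = 0.384). The sign for Col4a2 depended on the scaling, at 0.24 with size factors from cardiomyocyte markers and 0.15 with a correction for GC content. Col4a1 was called higher with those size factors (0.52, adjusted p = 0.00890), as were 37.2% of all genes. With the correction for GC content Col4a1 did not pass (0.26, adjusted p = 0.0931). The less abundant chains of the type, which form other type IV networks such as that of the kidney filter, all passed. Col4a3 rose from 6.62, 5.45 and 6.86 CPM to 9.49, 10.6 and 10.99 CPM (0.73 ± 0.12, adjusted p = 0.00542), in 6 of 6 fits without 1 library. Col4a4 was at 6.12, 5.52 and 6.51 CPM and 7.53, 7.72 and 9.02 CPM (0.42 ± 0.12, adjusted p = 0.0309). Col4a5 was at 37.8, 40.8 and 39.9 CPM and 44.9, 49.6 and 66.5 CPM (0.44 ± 0.13, adjusted p = 0.0425), and Col4a6 at 1.06, 0.766 and 1.05 CPM and 1.34, 1.96 and 3.43 CPM (1.23 ± 0.35, adjusted p = 0.0354). Groups did not overlap for any of these 4 chains, but the calls for Col4a4, Col4a5 and Col4a6 each held in only 1 of 6 fits without 1 library. With the correction for GC content Col4a4 and Col4a5 no longer passed (adjusted p = 0.05003 and 0.0622).

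Type IV genes lie in pairs that are read in opposite directions from neighbouring starts. Col4a1 and Col4a2 overlap by 22 bases at their annotated starts, Col4a4 and Col4a3 have 71 bases between their starts, and Col4a6 and Col4a5 have 1308. The window of Col4a2 is printed because it shares 78 bases, in capitals, with that of Col4a1 read from the other strand. It lies at chr8:11312555-11312854 on the plus strand (GRCm38.p6, RefSeq), and the shared bases are chr8:11312777-11312854.
Col4a2: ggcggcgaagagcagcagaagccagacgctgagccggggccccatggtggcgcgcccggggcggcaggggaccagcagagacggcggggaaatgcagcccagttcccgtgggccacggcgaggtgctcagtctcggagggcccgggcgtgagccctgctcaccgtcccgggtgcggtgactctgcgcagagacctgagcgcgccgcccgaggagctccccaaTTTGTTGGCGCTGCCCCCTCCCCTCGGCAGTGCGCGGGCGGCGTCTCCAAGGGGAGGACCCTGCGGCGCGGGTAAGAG

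Both tested network chains rose, 1 of which (Col8a2) passed the filter through the IR libraries alone. Col8a1 and Col8a2 are the short chains of type VIII collagen, a lattice collagen of vessel walls and of the membrane under the corneal endothelium. Col8a1 (ENSMUSG00000068196; chr16:57624258-57754737, minus strand) rose from 17.9, 17.01 and 15.6 CPM in sham to 64.8, 103 and 152 CPM after IR (2.66 ± 0.26, adjusted p = 0.00163). Col8a2 (ENSMUSG00000056174; chr4:126286793-126314330, plus strand) rose from 0.227, 0.184 and 0.291 CPM, which is 6, 6 and 5 reads, to 8.53, 13.5 and 20.1 CPM, which is 273, 511 and 538 reads (5.94 ± 0.43, adjusted p = 0.000462). Every IR library was far above every sham library in both chains, and both calls held in 6 of 6 fits without 1 library. The third network chain, Col10a1, had too few reads to be tested.

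Both windows of the type VIII genes are given because these chains of 1 collagen type rose by unequal amounts. Capitals mark matches, on either strand, to the E2-box CACCTG (the core letters bound by ZEB proteins), the GC box GGGCGG, the CCAAT box CCAAT and the TATA box TATAAA. That of Col8a1 (chr16:57754688-57754987, minus strand) holds 4 GC boxes and 1 E2-box, which overlaps a GC box. That of Col8a2 (chr4:126286544-126286843, plus strand) holds 4 GC boxes, of which 2 overlap, and no E2-box.
Col8a1: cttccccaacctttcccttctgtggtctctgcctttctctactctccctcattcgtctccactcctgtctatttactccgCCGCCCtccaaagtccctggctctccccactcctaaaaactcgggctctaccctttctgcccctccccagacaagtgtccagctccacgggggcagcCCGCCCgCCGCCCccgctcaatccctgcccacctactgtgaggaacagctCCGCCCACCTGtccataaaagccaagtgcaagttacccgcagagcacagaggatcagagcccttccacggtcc
Col8a2: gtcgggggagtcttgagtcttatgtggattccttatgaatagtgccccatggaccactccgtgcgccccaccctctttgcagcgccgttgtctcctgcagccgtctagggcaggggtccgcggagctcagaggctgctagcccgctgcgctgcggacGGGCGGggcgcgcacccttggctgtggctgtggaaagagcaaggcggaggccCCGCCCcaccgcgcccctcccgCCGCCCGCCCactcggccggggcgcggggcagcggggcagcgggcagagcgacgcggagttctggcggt

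FACIT chains rose in 4 of 5 tested cases, 1 of which (Col22a1) passed the filter through the IR libraries alone. Col12a1 (chr9:79598991-79718831, minus strand), which coats type I fibrils under mechanical load, went from 2.57, 1.20 and 1.80 CPM to 12.99, 21.4 and 49.1 CPM (3.92 ± 0.52, adjusted p = 0.00366). Col14a1 (chr15:55307750-55520803, plus strand), its close relative on fibrils of type I, went from 23.1, 11.3 and 13.5 CPM to 44.03, 82.9 and 137 CPM (2.46 ± 0.39, adjusted p = 0.00532). Col16a1 was at 4.57, 4.26 and 2.68 CPM in sham and at 10.99, 13.1 and 21.8 CPM after IR (1.95 ± 0.27, adjusted p = 0.00391). All 3 were separated between groups and passed in 6 of 6 fits without 1 library. Col22a1, known from the junction of muscle and tendon, was low, at 0.227, 0.245 and 0.465 CPM and 0.625, 0.740 and 1.08 CPM (1.45 ± 0.37, adjusted p = 0.0239, in 2 of 6 such fits). Col20a1 had a log2 fold change of 0.56 and did not pass (adjusted p = 0.193). The type IX chains Col9a1, Col9a2 and Col9a3 and Col19a1 had at most 11 reads per library.

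Beaded-filament chains also rose, with type VI collagen made of Col6a1, Col6a2 and another chain such as Col6a3. Col6a1 was at 39.4, 33.4 and 33.8 CPM in sham and 53.5, 76.5 and 103 CPM after IR (1.12 ± 0.20, adjusted p = 0.00745). Col6a2, 85161 bases from it on chromosome 10, was at 41.8, 34.3 and 34.5 CPM and 49.2, 71.9 and 95.00 CPM (0.96 ± 0.20, adjusted p = 0.0126). Col6a3 was at 42.5, 32.4 and 37.2 CPM and 65.4, 114 and 128 CPM (1.45 ± 0.22, adjusted p = 0.00456). None of the 3 overlapped between groups, while Col6a5 and Col6a6 did not pass (adjusted p = 0.182 and 0.330). The multiplexins, which sit in the zone around basement membranes, both passed with small changes. Col15a1 went from 65.1, 52.7 and 59.6 CPM to 75.8, 105 and 105 CPM (0.69 ± 0.13, adjusted p = 0.0102). Col18a1, the source of endostatin, went from 5.52, 5.21 and 4.94 CPM to 6.50, 6.77 and 9.54 CPM (0.53 ± 0.16, adjusted p = 0.0407, in 1 of 6 fits without 1 library). The transmembrane chains Col13a1, Col23a1 and Col25a1 lay between -0.40 and 0.93 and none passed, and Col28a1, at 0.302, 0.613 and 0.698 CPM and 1.09, 1.14 and 0.857 CPM, was just outside the threshold (0.97 ± 0.31, adjusted p = 0.0504). Col6a4, Col17a1, Col7a1 of anchoring fibrils and Col26a1 had at most 10 reads per library.

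Markers of several cell types moved with these chains. For scale, 11% of all genes tested were called higher and 9.74% lower. All IR libraries lay above all sham libraries in 20.5% of single genes and below them in 19.3%. The 9 resting fibroblast markers summed to between 732.9 and 773 CPM in sham and between 1141 and 2074 CPM after IR, with 7 of 9 called higher. The 10 activated fibroblast markers summed to between 117 and 211 CPM in sham and between 474 and 1436 CPM after IR, with 9 of 10 higher and Acta2 lower. Macrophage markers went from between 141 and 156 CPM to between 211 and 401 CPM (7 of 8 higher). Cardiomyocyte markers fell in 5 of 14 cases and summed to between 60917 and 67286 CPM in sham and between 47180 and 60656 CPM after IR, while none of 10 endothelial markers passed (log2 fold changes from -0.34 to 0.19). Of the other lists, 2 of 8 pericyte and smooth muscle markers were higher and 1 lower, 1 of 4 tested Schwann cell markers was higher, 1 of 4 mesothelial markers was lower, both tested cartilage-like markers (Sox9 and Acan) were higher, and 1 of 2 atrial markers (Nppa) was higher. No marker gene of these lists had 0 reads in all libraries. In bulk tissue more cells of a type and more RNA per cell cannot be told apart, and the part of the cell makeup in the collagen values was not tested.

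**Figure D3:**
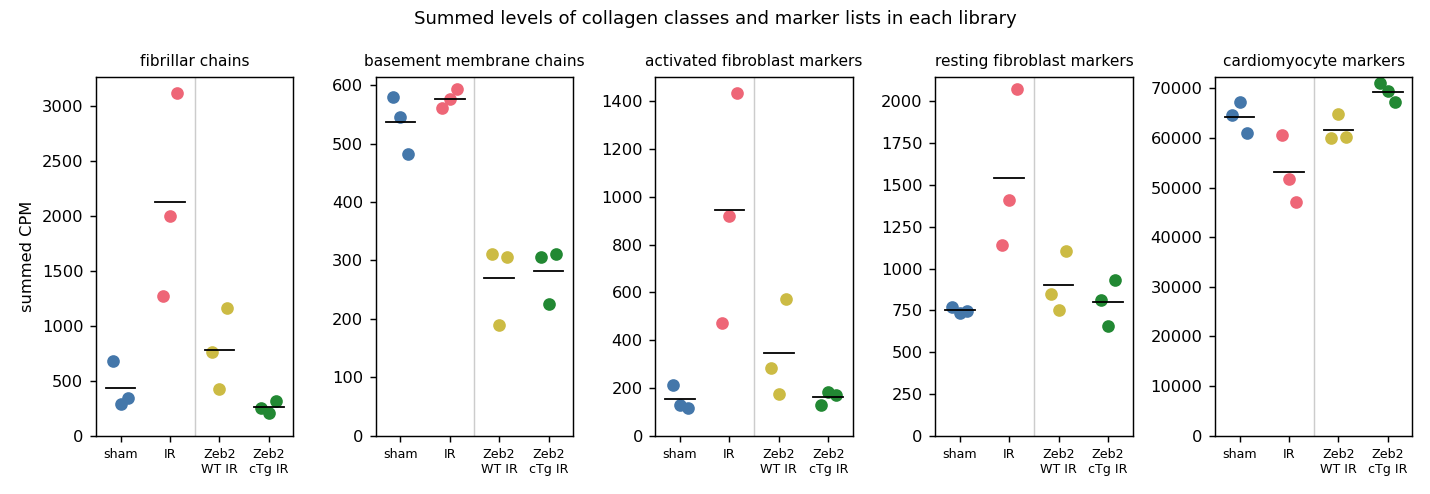
Summed CPM of the fibrillar and of the basement membrane chains and of 3 marker lists in each library (points; black lines are group means, n = 3; axes start at 0 and differ between panels). The fibrillar chains and both fibroblast lists are higher in each WT IR library than in each sham library, the basement membrane chains overlap, and libraries labelled Zeb2 cTg IR hold the lowest fibrillar sums of the Zeb2 table.

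The question of the second comparison was how libraries labelled Zeb2 cTg IR differed from Zeb2 WT IR after the same injury. The type III chain, 1 type I chain (Col1a2), a network chain and a FACIT chain were lower in libraries labelled Zeb2 cTg IR. No chain was called higher. Of the 44 chains, 30 were tested among 13018 genes. In edgeR's test 4 were lower (13.3%, against 1.51% of all genes), and 0 were higher, where 2.14% of all genes were. Among the 30 chains 10 were lower at an unadjusted p under 0.05 (10.1% of all genes) and 0 higher (14% of all genes), and over all chains with an adjusted p DESeq2 called 6 lower (2.9% of all genes) and 0 higher (4.69%). All libraries labelled Zeb2 cTg IR lay below all Zeb2 WT IR libraries in 8 of the tested chains, which 12.8% of all genes did, and the reverse held in 0 tested chains, against 13.4% of all genes. The median log2 fold change of the 30 chains was -0.25, beside 0.01 over all genes, and with a correction for GC content it was -0.51, beside 0.02. Of the 30 chains 3 passed the filter through the Zeb2 WT IR libraries alone (Col8a2, which is 1 of the 4 calls, Col25a1 and Col28a1), which can favour a higher level there. For Col25a1, 2 of the 3 libraries labelled Zeb2 cTg IR also reached the cutoff, and for Col8a2 and Col28a1 1 did. The count depended on single libraries. It was 0 without Zeb2 WT IR replicate 3, Zeb2 cTg IR replicate 1 or Zeb2 cTg IR replicate 3, where 0.361%, 0.511% and 0.349% of all genes were called lower. It was 9 without Zeb2 WT IR replicate 2 or Zeb2 cTg IR replicate 2, where 0.999% and 6.2% of all genes were.

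Of the 8 fibrillar chains tested, 2 were lower. Col3a1 was at 455, 277 and 783 CPM in Zeb2 WT IR and at 134, 106 and 170.4 CPM in libraries labelled Zeb2 cTg IR (-1.88 ± 0.34, adjusted p = 0.0213). Col1a2 was at 149.9, 69.8 and 196 CPM and 47.7, 44.4 and 65.98 CPM (-1.39 ± 0.32), and its adjusted p of 0.0497 was at the threshold. Its call held in 2 of 6 fits without 1 library, and its adjusted p was 0.0304 with DESeq2 and 0.0717 with limma-voom. Neither Col3a1 nor Col1a2 overlapped between groups. For Col1a2, Zeb2 WT IR replicate 2 was close to the highest library of the other group. Col1a1 was at 64.99, 21.5 and 53.7 CPM and 15.3, 11.1 and 24.1 CPM, so that the groups overlapped at that same library (-1.47 ± 0.39, adjusted p = 0.0683). Without Zeb2 WT IR replicate 2 the log2 fold change of Col1a1 was -1.81 (adjusted p = 0.0179), and the GC-corrected fit gave -1.90 (adjusted p = 0.00598). Col5a2 was at 46.95, 32.9 and 83.6 CPM and 25.2, 24.7 and 24.00 CPM, separated but outside the threshold (-1.15 ± 0.28, adjusted p = 0.0567). For Col5a1 the values were 32.5, 17.03 and 36.4 CPM and 18.2, 17.2 and 21.1 CPM (-0.60 ± 0.25, adjusted p = 0.176). Col11a1 was left out by the filter, with 26, 10 and 40 reads in Zeb2 WT IR and 2, 3 and 3 reads in libraries labelled Zeb2 cTg IR, 76 against 8 in all, and DESeq2, which tested it, gave an adjusted p of 0.00149. Col5a3 was at 8.83, 3.60 and 10.9 CPM and 7.29, 3.36 and 7.10 CPM, Col11a2 at 0.586, 0.202 and 0.233 CPM and 0.335, 0.763 and 0.730 CPM, and Col27a1 at 1.54, 0.809 and 1.27 CPM and 1.17, 1.22 and 1.23 CPM. All 3 overlapped between groups, and their log2 fold changes lay between -0.40 and 0.85 with adjusted p from 0.311 to 0.999.

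Network and FACIT chains gave the other 2 calls. Col8a2 was at 2.64, 1.01 and 6.06 CPM in Zeb2 WT IR, which is 72, 25 and 182 reads, and at 0.335, 0.381 and 0.533 CPM in libraries labelled Zeb2 cTg IR, which is 8, 10 and 19 reads (-2.93 ± 0.60, adjusted p = 0.0330). Col14a1 was at 34.01, 27.8 and 63.1 CPM and 12.4, 17.3 and 16.1 CPM (-1.45 ± 0.28, adjusted p = 0.0283). In both chains the groups were apart, and like Col3a1 each passed in 3 of 6 fits without 1 library. Col8a1 was at 35.7, 32.4 and 75.9 CPM and 15.3, 28.2 and 19.8 CPM (-1.19 ± 0.33, adjusted p = 0.0769), and Col12a1 at 4.33, 3.28 and 16.8 CPM and 1.26, 2.63 and 1.43 CPM (-2.21 ± 0.60, adjusted p = 0.0713). These did not overlap either, and neither passed. Col16a1 was at 3.70, 1.25 and 5.16 CPM and 2.30, 2.10 and 3.00 CPM (-0.45 ± 0.41, adjusted p = 0.523). Col22a1 had 2, 3 and 4 reads in Zeb2 WT IR and 14, 4 and 12 reads in libraries labelled Zeb2 cTg IR. It was not tested, and its CPM was higher in each of these than in each Zeb2 WT IR library. The same held for the untested Col17a1, on only 1, 0 and 0 reads and then 2, 1 and 4 reads. The untested Col13a1 went the other way without overlap, with 6, 3 and 6 reads and then 2, 0 and 4 reads. Apart from Col11a1 and Col22a1, the 14 untested chains had at most 10 reads per library.

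None of the 6 basement membrane chains passed. Col4a1 was at 173, 101 and 169 CPM in Zeb2 WT IR and at 156, 116 and 161 CPM in libraries labelled Zeb2 cTg IR (-0.03 ± 0.21, adjusted p = 0.948). Col4a2 was at 94.5, 48.4 and 86.1 CPM and 92.7, 61.1 and 94.2 CPM (0.11 ± 0.25, adjusted p = 0.806). In both chains Zeb2 WT IR replicate 2 was the lowest library, and the groups overlapped. The GC-corrected fit turned the sign of Col4a2 to -0.39 (adjusted p = 0.0973), gave -0.41 for Col4a1 (adjusted p = 0.0736) and moved the median of the 6 chains from 0.17 to -0.12; the factors from cardiomyocyte markers gave -0.27 for Col4a2. Col4a3 was at 5.35, 5.38 and 6.86 CPM and 5.70, 7.74 and 7.83 CPM (0.28 ± 0.18, adjusted p = 0.371), and Col4a4 at 3.89, 2.83 and 3.83 CPM and 5.57, 3.81 and 5.22 CPM (0.47 ± 0.21, adjusted p = 0.210). Col4a5 was at 34.5, 31.99 and 40.02 CPM and 45.7, 36.6 and 41.9 CPM (0.22 ± 0.14), and Col4a6 at 0.916, 0.688 and 1.33 CPM and 0.503, 0.420 and 1.43 CPM (-0.28 ± 0.48). The 5 beaded-filament chains lay between -0.67 (Col6a3, adjusted p = 0.146) and 0.51 (Col6a5, adjusted p = 0.625), and both multiplexins overlapped (Col15a1 -0.21 ± 0.21 and Col18a1 0.07 ± 0.35). Col6a1 was at 35.6, 21.4 and 41.6 CPM and 29.4, 22.9 and 35.6 CPM, and Col6a2 at 23.5, 12.1 and 27.7 CPM and 21.9, 14.9 and 25.7 CPM.

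Marker lists in these libraries were as follows. For scale, 2.14% of all genes tested were called higher and 1.51% lower. Single genes whose groups did not overlap made up 13.4% (higher) and 12.8% (lower) of all genes. Activated fibroblast markers summed to between 176 and 573 CPM in Zeb2 WT IR and between 131 and 182 CPM in libraries labelled Zeb2 cTg IR, with 2 of 10 lower (Tnc and Cthrc1) and 1 higher (Acta2). Resting fibroblast markers summed to between 754 and 1104 CPM and between 654 and 934 CPM, with 1 of 9 lower (Lum). The groups overlapped in both sums. Cthrc1 was at 2.26 ± 1.62 CPM in Zeb2 WT IR and 0.129 ± 0.0932 CPM in libraries labelled Zeb2 cTg IR (SD, n = 3). It could thus pass the filter only through the Zeb2 WT IR libraries, which favoured this direction. Cardiomyocyte markers summed to between 59941 and 64826 CPM and between 67268 and 71038 CPM, without overlap between the groups and with 2 of 14 markers higher. No macrophage, endothelial, Schwann cell, mesothelial or cartilage-like marker passed, and Nppa was again higher. Of 7 pericyte and smooth muscle markers tested 1 was lower (Abcc9), and their sum was lower without overlap, at 812, 838 and 709 CPM in Zeb2 WT IR and 535, 574 and 598 CPM in libraries labelled Zeb2 cTg IR. Cartilage-like markers, at 1.83 to 3.03 CPM and 1.09 to 1.72 CPM in sum, did not overlap either, and the endothelial, macrophage, Schwann cell and mesothelial sums overlapped. Their part in the collagen differences was not tested.

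Setting the classes against each other within a library removes the scaling between libraries, but not an effect of GC content. The share of each class in the summed collagen CPM per kb was compared by exact two-sided permutation tests, which with 3 against 3 libraries cannot go below p = 0.1. Fibrillar chains made up 46.7%, 29.2% and 34.1% of collagen in the sham libraries and 58.6%, 64.1% and 70.0% after IR, with means of 36.7% ± 9.01 and 64.2% ± 5.69 (SD, n = 3; exact permutation p = 0.1). Basement membrane chains made up 35.1%, 48.9% and 43.0% in sham and 22.4%, 16.0% and 11.5% after IR, also without overlap (exact permutation p = 0.1). Their summed level was 536 ± 49.5 CPM in sham and 577 ± 16.3 CPM after IR, and that of the fibrillar chains 437 ± 211 CPM and 2128 ± 932 CPM (SD, n = 3). The lower mean share of basement membrane chains thus stood beside a mean level that was not lower. Network chains took 1.75% ± 0.299 in sham and 4.18% ± 0.274 after IR, and FACIT chains 1.83% ± 0.117 and 3.29% ± 0.550 (SD, n = 3, exact permutation p = 0.1 for both). Other classes lost share without overlap as well (exact permutation p = 0.1 for each). Beaded-filament chains took 10.6% ± 1.26 and 7.91% ± 0.482, multiplexins 6.43% ± 0.948 and 3.64% ± 0.726, and transmembrane chains 0.224% ± 0.0833 and 0.0792% ± 0.0357.

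In the Zeb2 table the shares were compared in the same way. Fibrillar chains made up 60.2%, 56.7% and 65.7% of collagen in Zeb2 WT IR and 36.7%, 37.5% and 40.5% in libraries labelled Zeb2 cTg IR (60.9% ± 4.55 and 38.2% ± 1.99, SD, n = 3; exact permutation p = 0.1). Basement membrane chains made up 21.2%, 21.9% and 14.8% and then 39.5%, 35.5% and 34.8% (exact permutation p = 0.1). No library of one group reached the other group in either class. Summed fibrillar levels were 784 ± 372 CPM and 258 ± 53.3 CPM (SD, n = 3), and summed basement membrane levels 269.5 ± 68.9 CPM and 281 ± 47.7 CPM. The higher share was not particular to basement membrane chains. Beaded-filament chains (8.09% ± 0.748 and 12.8% ± 0.876), multiplexins (3.35% ± 0.435 and 5.43% ± 0.0463) and the anchoring-fibril chain (0.00802% and 0.0184%) also rose in share without overlap (exact permutation p = 0.1 for each). Network chains (4.55% ± 0.977 and 3.81% ± 1.77) and FACIT chains (3.62% ± 0.5005 and 2.94% ± 0.687) overlapped (exact permutation p = 0.7 and 0.2). Over all 36 exact tests of shares and ratios, p = 0.1 became 0.15 after Benjamini-Hochberg adjustment, so none passed the threshold.

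**Figure D4:**
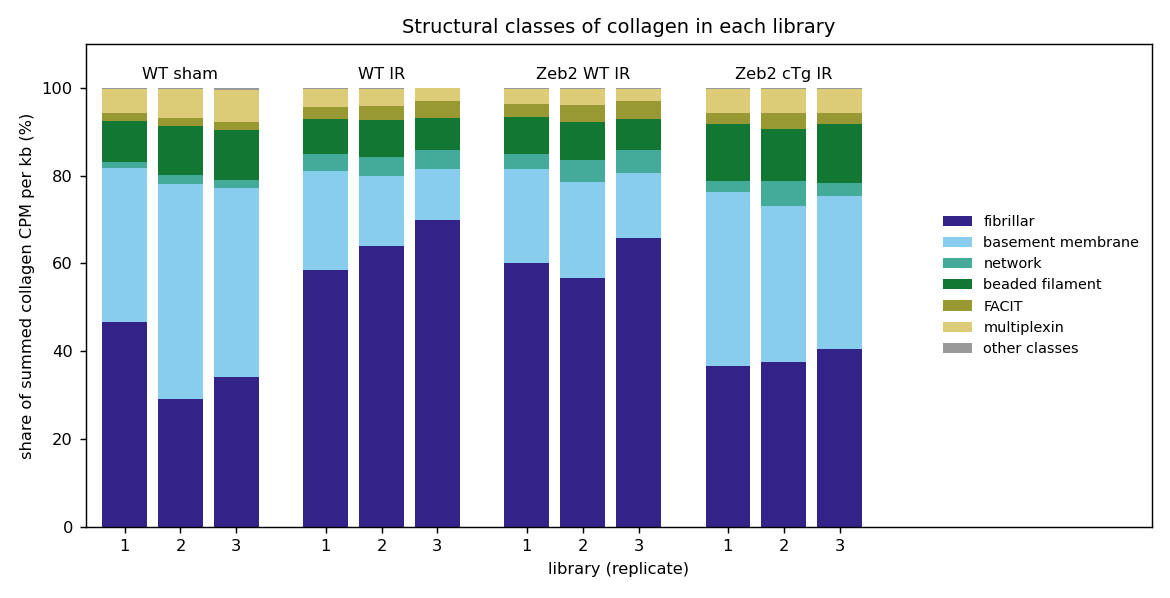
Share of each structural class in the summed collagen CPM per kb of each library (stacked bars, in percent of that library's collagen). Fibrillar chains take 58.6% to 70.0% in WT IR and 56.7% to 65.7% in Zeb2 WT IR, and 29.2% to 46.7% in WT sham and 36.7% to 40.5% in libraries labelled Zeb2 cTg IR.

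Chains of 1 molecule need not change by equal amounts, and 9 pairs of chains were compared as ratios per kb within each library. In the pairs that set Col3a1, Col4a1 or Col12a1 against Col1a1 the chains belong to different collagen types. A ratio removes the scaling but not an effect of GC content, and paired chains differ in it (Col5a1 58.0%, Col5a2 49.6%). In the Zeb2 table their log2 fold changes were -0.60 and -1.15, and -0.98 and -1.15 with the GC correction. In the WT table they were 1.20 and 2.19, and 1.32 and 2.10. No ratio was corrected for GC content. The ratio of Col1a1 to Col1a2, whose protein chains stand at 2 to 1 in type I collagen, was 0.593 in sham and 0.472 after IR (geometric means, n = 3), with overlapping libraries (exact permutation p = 0.2). Col3a1 per Col1a1 was 3.94, 4.56 and 5.54 in sham and 7.26, 8.88 and 9.31 after IR, without overlap (exact permutation p = 0.1). Col5a1 per Col5a2 was 1.02, 0.938 and 0.989 and then 0.560, 0.546 and 0.446, also without overlap (exact permutation p = 0.1). Col8a1 per Col8a2 differed most, with 66.9, 78.4 and 45.5 in sham, where Col8a2 had 5 or 6 reads, and 6.45, 6.49 and 6.41 after IR (exact permutation p = 0.1). In the Zeb2 table the same ratio was 11.5, 27.2 and 10.6 in Zeb2 WT IR and 38.7, 62.6 and 31.4 in libraries labelled Zeb2 cTg IR, with all of the second group above the first (exact permutation p = 0.1). There Col3a1 per Col1a1 overlapped (exact permutation p = 0.4), and Col5a1 per Col5a2 was 0.546, 0.408 and 0.343 in Zeb2 WT IR and 0.568, 0.551 and 0.692 in libraries labelled Zeb2 cTg IR. Col4a1 per Col4a2 had geometric means of 1.54 in sham and 1.87 after IR (exact permutation p = 0.1), and of 1.90 and 1.72 in the Zeb2 table (exact permutation p = 0.2).

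Collagen chains are hydroxylated, folded, trimmed, crosslinked and taken up by other proteins, for which 43 genes were listed, and 42 of them were in the tables. In WT IR against WT sham 18 of 42 tested were higher (42.9%, against 11% of all genes) and 1 was lower (2.38%, against 9.74%), with a median log2 fold change of 0.42. Crosslinking enzymes had the largest share of calls, with 4 of 5 lysyl oxidases higher. Lox, which crosslinks collagen and elastin, rose from 4.72 ± 3.87 to 44.8 ± 20.7 CPM (SD, n = 3; log2 fold change 3.22 ± 0.48, adjusted p = 0.00456), Loxl3 by 2.05 ± 0.31 and Loxl2 by 1.20 ± 0.22. Among 7 genes of propeptide removal 5 were higher, with Adamts2, the N-propeptidase of fibrillar collagens, up by 2.09 ± 0.27 and the C-proteinase enhancers Pcolce and Pcolce2 by 0.91 ± 0.18 and 1.06 ± 0.21. Hydroxylation and folding genes gave 3 of 12 and 3 of 10 calls, among them P3h3 at 1.28 ± 0.20 and P4ha3, a prolyl hydroxylase subunit. P4ha3 was at 0.0126 ± 0.0218 CPM in sham and 0.879 ± 0.474 CPM after IR. With almost no reads in sham it could pass the filter only through the IR libraries, which favoured this direction. Receptors gave 3 of 8 higher, with the collagen receptors Itga11 at 1.62 ± 0.23 and Ddr2 at 0.69 ± 0.11.

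Of the same lists 41 genes were tested in the Zeb2 mice, of which 2 were higher (4.88%, against 2.14% of all genes) and 1 was lower (2.44%, against 1.51%), with a median log2 fold change of -0.06. Lox was at 20.9 ± 10.1 CPM in Zeb2 WT IR and 3.00 ± 0.559 CPM in libraries labelled Zeb2 cTg IR (SD, n = 3; -2.80 ± 0.32, adjusted p = 0.00325). Pcolce went the other way, from 8.26 ± 1.38 to 22.4 ± 5.67 CPM (1.44 ± 0.21, adjusted p = 0.0109), as did Adamts3, a second N-propeptidase (0.79 ± 0.16, adjusted p = 0.0308). Hydroxylation, folding and receptor genes gave no call.

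GC content moved with the fold changes. Across all genes with a known sequence the rank correlation between log2 fold change and GC content of the longest transcript was -0.29 in WT IR against WT sham (13609 genes) and 0.55 in the Zeb2 table (12892 genes). The genes of 1 library share its preparation, so these are descriptions. Tested collagen chains had a median GC content of 54.8%, above the 49.4% of all genes tested in the WT table. Among the 34 chains of that table the rank correlation was -0.47, and the 17 chains at or below the median GC had 12 calls higher against 10 among the 17 above it. In the Zeb2 table it was 0.21 over 30 chains, with 2 of the 4 calls among the 15 chains at or below the median GC and 2 among the 15 above it. With the correction for GC content 20 chains were called higher (8.54% of all genes) and 1 lower (11.5% of all genes) in WT IR against WT sham. In libraries labelled Zeb2 cTg IR 8 chains were then lower (2.65% of all genes) and 0 higher (3.79% of all genes), with Col1a1, Col5a1, Col5a2 and Col6a3 added to the 4.

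**Figure D5:**
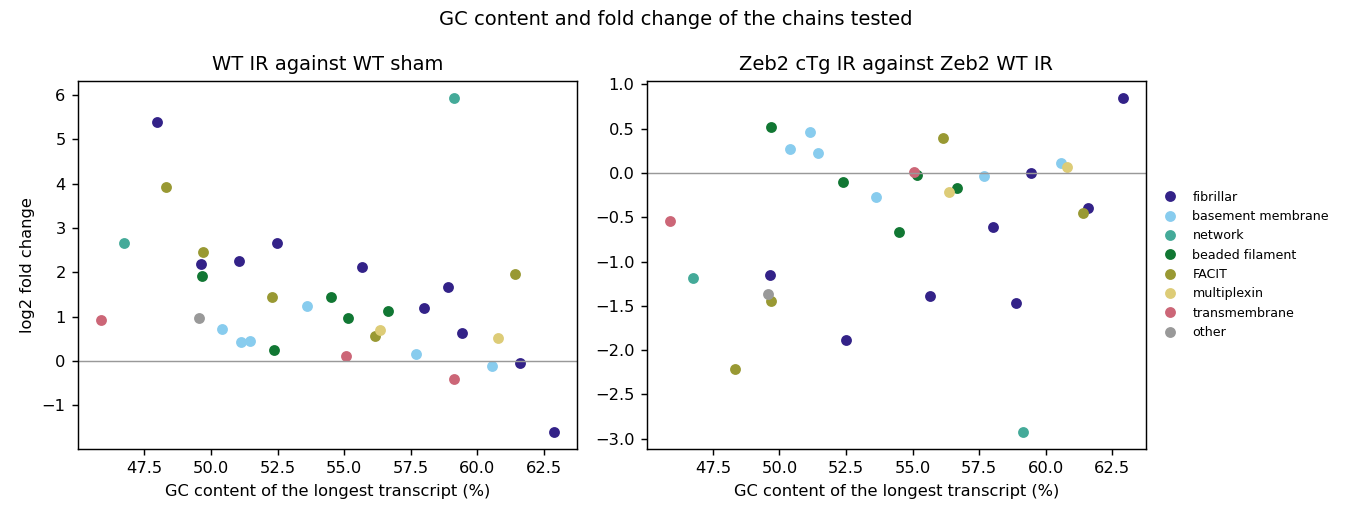
Log2 fold change of each tested chain against the GC content of its longest transcript, coloured by class, in WT IR against WT sham (34 chains) and in libraries labelled Zeb2 cTg IR against Zeb2 WT IR (30 chains). Col11a2, at 62.9% GC, is the lowest point on the left and the highest on the right, and Col8a2, at 59.1%, is the highest on the left and the lowest on the right.

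The promoter windows of the chains shared no single motif. RefSeq windows of 300 bases were found for 35 of the 44 genes (38 windows). The GC box was in 23 of 38 collagen windows (60.5%) and in 35.7% of all 32851 windows, and the CCAAT box in 13 (34.2%, against 37.4%). The TATA box letters were in 5 windows (13.2%, against 13.6%), and the E2-box in 5 (13.2%, against 20.2%), those of Col4a4, Col6a5, Col8a1, Col9a2 and Col16a1. Among tested chains with a window, 3 of 17 called and 1 of 11 not called in WT IR against WT sham held the E2-box, as did 0 of 3 called and 4 of 22 not called in the Zeb2 table. A match is a run of letters and not evidence of binding.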

How the data were processed

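RNA-seq of 12 mouse heart libraries was deposited as 2 tables of raw gene counts, 1 for the WT and 1 for the Zeb2 mice. Per the submitters' processing notes, the authors aligned reads to mm10 with STAR 2.4.2a and counted reads per gene with HTSeq 0.6.1, and the methods name the GENCODE M4 annotation; the methods name a total RNA kit and the sample records an mRNA kit. Symbols, gene positions, transcript lengths and GC content came from GENCODE M21 (GRCm38), which gave a symbol for 36429 identifiers, and promoter windows from RefSeq (GRCm38.p6). Each table was filtered (filterByExpr, minimum count 10, minimum total 15), scaled by TMM and tested with edgeR 4.0.16 (quasi-likelihood, R 4.3.3) with Benjamini-Hochberg adjustment over all genes tested and a threshold of 0.05. CPM is counts per 1e6 of the TMM-scaled library size, and levels between genes were compared per kb of the longest transcript. Shares and ratios were compared by exact two-sided permutation tests with scipy 1.17.1. Libraries are separate animals, 3 per group, so p-values measure the spread between them. Alternatives were RLE factors, limma-voom (limma 3.58.1), DESeq2 1.42.0, other filters, scalings without mitochondrial or collagen genes or from cardiomyocyte markers, a GC correction (loess, span 0.5), a replicate block, all 12 libraries in 1 fit and leaving out each library.

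The members and lists were chosen with earlier results of these data known. Every library's value was printed for chains with an adjusted p under 0.05 and for tested fibrillar and basement membrane chains; at most the 10 pathway genes with the smallest p per comparison were named. Ctage5 of the pathway lists had no match in the tables. The scripts were tested on simulated data.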

Additional observations from a re-analysis of the deposited data

How the results depend on the processing

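The 22 chains called higher in WT IR became 10 without WT sham replicate 2 and 25 without WT IR replicate 1 (1.64% and 18.4% of all genes), the lowest and highest counts over the fits without 1 library; with the replicate number as a block they were 21 (10.1%). With 10 counts required in every library no chain was called lower, since Col11a2 was then not tested. In the Zeb2 table the 4 chains called lower became 11 with no filter on low counts (2.37% of all genes), 2 with 10 counts in every library (1.15%), 2 with limma-voom (1.25%), 8 with the GC correction (2.65%), 8 with all 12 libraries in 1 fit (4.71%), 9 with the replicate block (4.99%) and 8 with the block and the GC correction (2.31%), against 1.51% of all genes in the main comparison. They ranged from 0 (without Zeb2 WT IR replicate 3, Zeb2 cTg IR replicate 1 or Zeb2 cTg IR replicate 3) to 9 (without Zeb2 WT IR replicate 2 or Zeb2 cTg IR replicate 2), and the chains called higher from 0 to 1. The cause of these changes in the counts was not tested. Same-numbered libraries are different animals. The correlation of their deviations was between -0.03 and 0.01 in the WT table. In the Zeb2 table it was 0.10, 0.20 and -0.06 for replicates 1, 2 and 3. There the replicate block raised the shares of genes called higher and lower from 2.14% and 1.51% to 8.94% and 4.99%. Whether same-numbered libraries of the Zeb2 table shared a step of preparation was not tested. With cardiomyocyte marker size factors the all-gene median log2 fold change was 0.37 in the WT table and -0.35 in the Zeb2 table, and the shares of genes called higher and lower were 37.2% and 1.55% in the first and 0.315% and 1.41% in the second (11% and 9.74%, and 2.14% and 1.51%, with TMM). No called value reversed. The 3 libraries per group limit all calls, and chains with a few reads per library could not be compared at this depth.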
